A study of Rattus norvegicus with 20 samples.

Results

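The genes described here encode the splicing factors of rat whole blood. They are the genes whose symbol begins with Sf3a or Sf3b and a digit, Srsf and a digit, Snrp, Hnrnp, U2af or Prpf, and that had at least 2 reads in at least 15 of 19 libraries. Of 69 genes with such a symbol, 67 were measured, out of 16734 genes that passed the same filter and 32882 genes in the count table. The remaining 2 were Snrpn, with at most 2 reads in a library, and Srsf8, with at most 1 read. By family there were 9 SF3a and SF3b genes, 3 U2AF genes, 12 of 13 SNRP genes, 13 PRPF genes, 11 of 12 SRSF genes and 19 HNRNP genes.

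Blood was taken from male wild-type Fischer 344 (F344) rats, 5 on each of 4 diets, labelled as 8 weeks old and fed for 20 days. CSAA, an amino acid-defined diet with sufficient choline, was the base of all 4. It was given alone, with 1.2 g/kg resveratrol (RSV), with 1.34 g/kg pterostilbene (PTS) or with 1.9 g/kg chlorogenic acid (CGA), doses that the study describes as equal in moles. PTS is RSV with methoxy groups in place of a pair of its hydroxyls, whereas CGA is a polyphenol of another kind. The study asked whether these dietary compounds alter blood gene expression in healthy animals. Each library is the RNA of 1 rat, whole blood holds red cells, platelets and several kinds of leukocyte, and in such a mixture fewer cells of a type and less RNA per cell cannot be told apart. The CSAA+RSV library of rat 4 held 861072 counts and was left out, and the other 19 held 24036703 to 36743103 counts.

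Splicing removes introns from transcripts in the nucleus. U1 and U2 small nuclear ribonucleoproteins (snRNPs) first mark the ends of the intron and its branch point, and the U4/U6.U5 tri-snRNP then joins to form the catalytic spliceosome. SF3a and SF3b are parts of the U2 snRNP, U2AF guides it to the acceptor site, and Sm proteins (Snrp genes) form the ring around the small nuclear RNAs. SR proteins (Srsf genes) mostly favor the use of exons that they bind, while hnRNPs often oppose it. Mature red cells have no nucleus, so splicing factor transcripts in blood are expected mainly in leukocytes and in young red cells and platelets that keep RNA.

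Blood cell markers were present in all diets. Hba-a1, an alpha-globin gene, was at 6207 to 30740 CPM (counts scaled to library size by TMM, per 1e6 counts), the platelet factor Pf4 at 282 to 763 CPM, the neutrophil gene S100a9 at 250 to 634 CPM and the T-cell gene Cd3e at 11.1 to 22.8 CPM. Hemoglobin genes took 3.78 to 16.2% of the counts of a library. The 67 splicing factor genes together took 0.156 to 0.278%.

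Per kilobase of gene model the splicing factor genes spanned from 0.554 CPM per kb (Prpf40b) to 62.0 CPM per kb (Srsf5), as means over 19 rats. Srsf5, an SR protein gene, was followed by Snrpe of the Sm ring at 45.1 ± 7.28 CPM per kb (SD, n = 19), Hnrnpf at 43.4 ± 5.88 and Sf3b1 at 38.4 ± 3.67. Snrpe, Hnrnpf and Sf3b1 overlapped over the rats. Srsf5 (62.0 ± 4.71 CPM per kb) ranged from 54.5 to 71.2 and Snrpe from 34.0 to 59.3 CPM per kb, so these neighbors also overlapped in some rats. The median over a family was 20.9 CPM per kb for HNRNP, 14.4 for SRSF, 8.19 for U2AF, 7.55 for SF3a and SF3b, 7.13 for PRPF and 6.73 for SNRP.

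**Figure D1:**
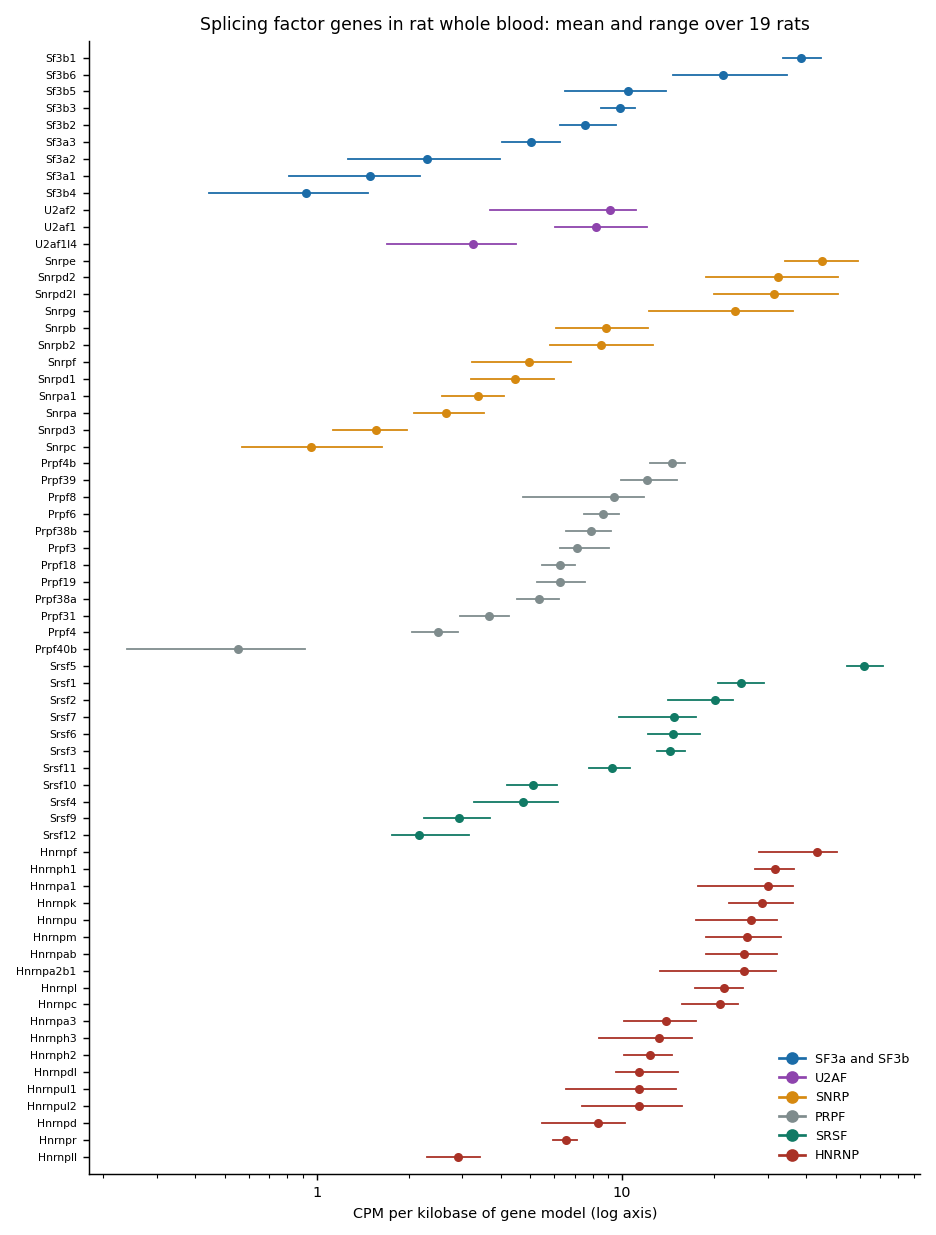
Level of 66 of the 67 splicing factor genes in rat whole blood, by family. The horizontal axis is CPM per kilobase of gene model on a log scale, points are means and lines run from the lowest to the highest of 19 rats. Srsf5 lies furthest to the right at 62.0 CPM per kb and Prpf40b furthest to the left at 0.554 CPM per kb.

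Subunits of a single complex differed widely in transcript level. In SF3b, Sf3b1, whose protein clasps the branch site, was at 38.4 CPM per kb, and Sf3b6, whose small protein contacts the branch point, at 21.4 ± 4.88 CPM per kb. Sf3b5 and Sf3b3 were at 10.4 ± 2.03 and 9.81 ± 0.726 CPM per kb, which overlap. Sf3b2 was at 7.55 ± 0.909 and Sf3b4 at 0.925 ± 0.284 CPM per kb. In SF3a, the complex that bridges SF3b to the rest of the U2 snRNP, Sf3a3 was at 5.02 ± 0.519, Sf3a2 at 2.29 ± 0.811 and Sf3a1 at 1.49 ± 0.381 CPM per kb. These values rest on the deposited gene lengths, and transcripts shorter than the gene model would read low.

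In the Sm ring, Snrpe, Snrpd2, Snrpd2l and Snrpg ran from 23.5 to 45.1 CPM per kb, and Snrpb, Snrpf, Snrpd1 and Snrpd3 from 1.56 to 8.83 CPM per kb. RefSeq annotates Snrpd2l as a pseudogene, and how reads were divided between it and Snrpd2, its near copy, is uncertain. Of the U1-specific genes, Snrpa was at 2.65 and Snrpc at 0.956 CPM per kb. Of the U2-specific genes, Snrpb2 was at 8.53 and Snrpa1 at 3.38 CPM per kb. Among genes of the tri-snRNP, Prpf8, the large scaffold around the catalytic center, was at 9.41 ± 1.83 CPM per kb, Prpf6 at 8.68 ± 0.630, Prpf3 at 7.13 ± 0.822, Prpf31 at 3.67 ± 0.335 and Prpf4 at 2.49 ± 0.198. Prpf8 and Prpf6 overlapped, as did their spreads with Prpf3.

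The promoter windows of the members that recur in the comparisons show which short elements lie at their starts. RefSeq windows of 300 bases (GRCr8, 250 before and 50 from the annotated start) matched 62 of the 67 genes, and U2af2 was not among them. The windows of Sf3a2, Hnrnpa1 and Sf3b6 follow because their transcripts carry the results on PTS and on hemoglobin below. Capitals mark the letters CCGGAAG (an ETS element), GGGCGG (a GC box) and CCAAT on either strand, and 0 of the marked matches overlap.
Sf3a2, chr7:9566156-9566455, minus strand: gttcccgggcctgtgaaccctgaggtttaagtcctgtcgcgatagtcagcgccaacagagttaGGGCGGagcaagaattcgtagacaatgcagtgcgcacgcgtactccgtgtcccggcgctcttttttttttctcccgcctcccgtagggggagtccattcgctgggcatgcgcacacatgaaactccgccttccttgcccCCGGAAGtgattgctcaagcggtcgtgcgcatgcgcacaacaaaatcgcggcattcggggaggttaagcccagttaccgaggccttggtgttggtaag
Hnrnpa1, chr7:136253868-136254167, plus strand: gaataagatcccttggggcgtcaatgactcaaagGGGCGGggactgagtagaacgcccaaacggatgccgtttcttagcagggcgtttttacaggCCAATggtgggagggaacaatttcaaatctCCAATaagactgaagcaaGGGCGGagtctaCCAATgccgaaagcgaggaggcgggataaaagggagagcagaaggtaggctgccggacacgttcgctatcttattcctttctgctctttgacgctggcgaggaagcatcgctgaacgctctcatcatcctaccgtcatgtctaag
Sf3b6, chr6:33545245-33545544, plus strand: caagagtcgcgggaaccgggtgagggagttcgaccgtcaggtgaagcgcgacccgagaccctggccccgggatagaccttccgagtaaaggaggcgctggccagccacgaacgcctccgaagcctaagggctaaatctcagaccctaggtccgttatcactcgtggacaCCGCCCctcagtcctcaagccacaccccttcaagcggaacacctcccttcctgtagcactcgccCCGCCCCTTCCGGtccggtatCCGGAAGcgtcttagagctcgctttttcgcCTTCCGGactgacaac

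Sf3a2 held 1 ETS element and 1 GC box. Sf3b6 held 3 ETS elements and 2 GC boxes, and Hnrnpa1 held 2 GC boxes and 3 CCAAT boxes with no ETS element. Over the 62 windows, 18 held CCGGAAG (29.0%, against 8.75% of all 33469 windows of the same length), 36 held GGGCGG (58.1% against 33.1%) and 34 held CCAAT (54.8% against 37.5%). TATAAA was in 6 windows (9.68% against 14.2%). The motif bound by erythroid transcription factors of the GATA family, searched as AGATAA, was likewise in 6 (9.68% against 11.6%). The windows of the members held a median of 24 CG dinucleotides, against 7 over all windows. The 33469 windows were not limited to genes measured in these libraries, and no share over the measured genes was computed. CCGGAAG and GGGCGG also hold a CG themselves. The shares are therefore not shown to be particular to splicing factor genes. These matches are descriptions of letters and were not tested.

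The median spread from rat to rat was lower over splicing factor genes than over all genes tested, at unlike levels. The SD of log2 CPM over 19 rats had a median of 0.193 over the 67 genes and of 0.325 over all genes tested. Among the 12025 genes with a mean of at least that of the lowest member it was 0.263. Mean CPM had a median of 17.2 over the members, 3.91 over all genes tested and 8.15 over those 12025. The sets were not matched for level, so a low spread is not shown to be particular to the members. The coefficient of variation ran from 4.62% for Hnrnpr to 35.3% for Sf3a2. Of the variance of log2 CPM, a median of 14.6% lay between diets (12.0% over all genes tested). A median of 26.3% lay between the rat numbers that the diets share (35.8% over all genes tested). These shares were not corrected for the number of groups, so differences among single rats alone also give a share. Medians of this size can arise with no effect of diet or rat number, and they are not evidence of one. Sf3a2 had the most between diets, with 51.3%, then Prpf39 with 44.2% and Hnrnpa1 with 39.2%.

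**Figure D2:**
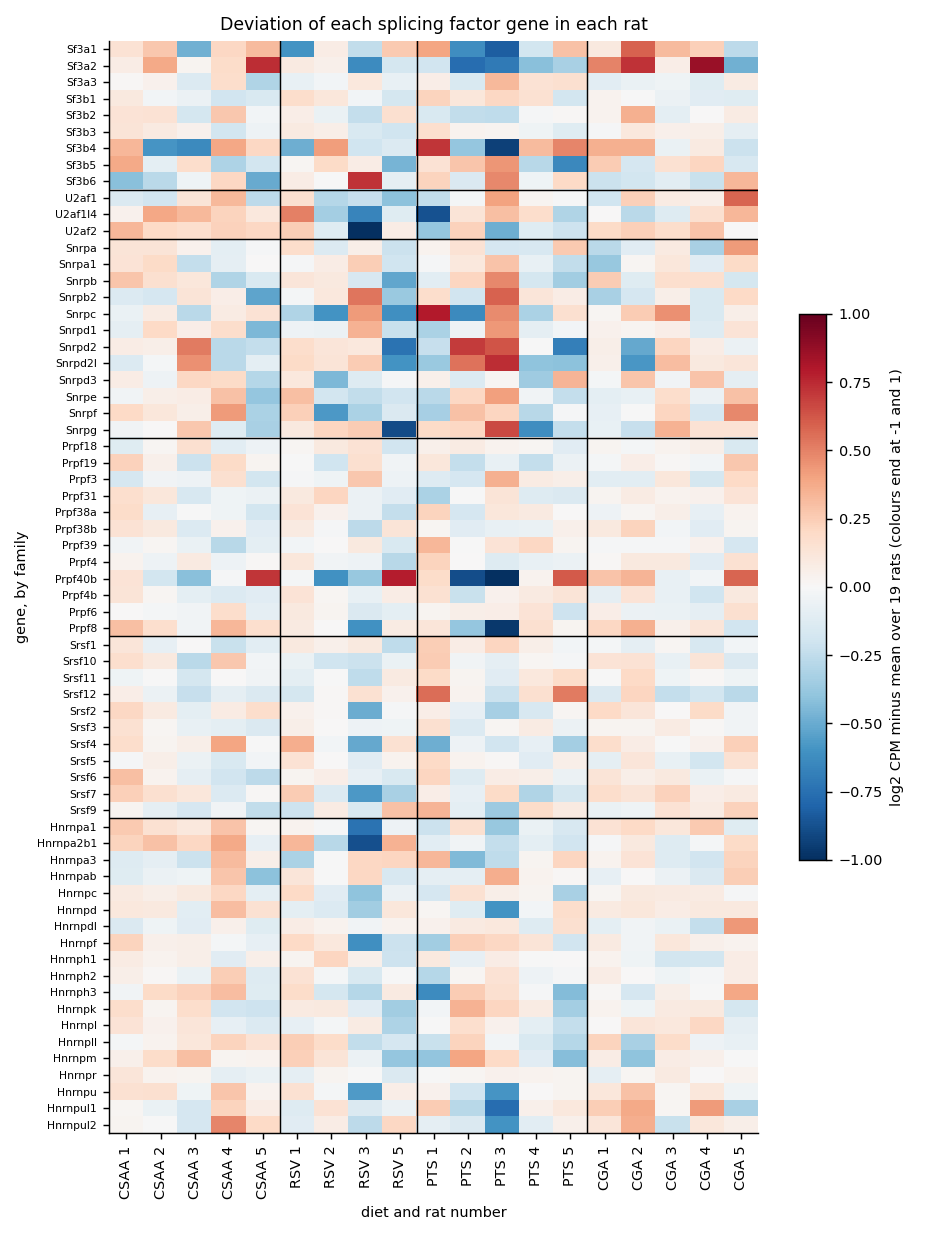
Deviation of 66 splicing factor genes in each rat, as log2 CPM minus the mean of the gene over 19 rats, with genes in rows by family and rats in columns by diet. CSAA+RSV rat 3 and CSAA+PTS rat 3 hold many of the strongest colors: U2af2 is lowest in the former (6.28 CPM) and Prpf8 lowest in the latter (35.3 CPM).

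A pair of rats had the largest deviations over the members, by a small margin. In CSAA+RSV rat 3 the members deviated from their means by a median of 0.21 (absolute log2 value) and in CSAA+PTS rat 3 by 0.22, against 0.07 to 0.19 in the other 17 rats. Over all genes tested these medians were 0.27 and 0.34, against 0.13 to 0.32 in the other 17 rats. There CSAA+RSV rat 5 (0.32), CSAA+PTS rat 5 (0.30) and CSAA+PTS rat 2 (0.29) lay above CSAA+RSV rat 3. CSAA+RSV rat 3 and CSAA+PTS rat 3 also had the lowest hemoglobin shares, 3.78 and 4.12% of counts. The deviation ran with or against gene length in several rats, from r = -0.47 with log2 length in CSAA+PTS rat 3 and -0.38 in CSAA+CGA rat 5 to 0.39 in CSAA+RSV rat 5 and CSAA+CGA rat 2 and 0.45 in CSAA+PTS rat 4 (across 67 genes that are not independent replicates). In CSAA+PTS rat 3 the short genes Snrpd2l and Snrpg lay 0.74 and 0.66 above their means on the log2 scale, and the long genes Prpf8 and Sf3a1 were at -0.96 and -0.82. Rats numbered 5 differed in another way: they had 25104 to 29543 genes with a count, against 19600 to 23632 in the other 15 rats.

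Rat numbers entered as a term beside diet gave 1 member at a false discovery rate (FDR) under 0.05 in edgeR, against 10.0% of all genes tested, and 14 members at an unadjusted p under 0.05, against 30.4% of all genes. The gene was Prpf40b, whose yeast counterpart belongs to the U1 snRNP (adjusted p = 0.00963), named here after its values were seen. It was at 2.48 to 2.86 CPM in the 4 rats numbered 5 and at 0.749 to 2.09 CPM in the other 15, without overlap. Leaving out CSAA+RSV rat 5 gave 0 members, and leaving out CSAA rat 2, CSAA+CGA rat 2, CSAA+CGA rat 4 or CSAA+CGA rat 5 gave 2, 6, 3 and 5. Without all rats numbered 5 it was 0.

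Hemoglobin share and splicing factor level were compared across the 19 rats, since that share differed between diets. It was 10.8 to 15.8% with CSAA, 3.78 to 11.5% with CSAA+RSV, 4.12 to 11.2% with CSAA+PTS and 5.93 to 16.2% with CSAA+CGA. Over 16734 relations adjusted together, 7 of the 67 members had an FDR under 0.05, against 3.61% of all genes, and over the members r had a median of 0.07. Positive were Hnrnpa1, U2af2, Sf3a2, Srsf2 and Hnrnpu, and negative were Sf3b6 and Prpf3. Both measures come from the same libraries and share their total, which was not removed from the relation. The permutations moved the share freely over all 19 rats, across diets and rat numbers. Their p-values therefore do not separate a relation within diets from differences between diets. The values of r within diets were not tested.

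Hnrnpa1, whose protein represses many exons, had r = 0.81 (permutation p = 1e-05, the smallest that 100000 permutations can give, adjusted p = 0.00465) and rho = 0.81 (permutation p = 5e-05). U2af2, the large U2AF subunit that binds the polypyrimidine tract, had r = 0.77 (permutation p = 1e-05, adjusted p = 0.00465) and rho = 0.79 (permutation p = 9e-05). Sf3a2 had r = 0.73 (permutation p = 0.00047, adjusted p = 0.0248) and rho = 0.75 (permutation p = 0.00044). Sf3b6 had r = -0.77 (permutation p = 5e-05, adjusted p = 0.00805) and rho = -0.80 (permutation p = 0.00011). Without CSAA+RSV rat 3 and CSAA+PTS rat 3, the farthest from the median share, r was 0.79, 0.79, 0.64 and -0.67 for these genes in the same order. Within diets, after the diet means were removed, it was 0.72, 0.67, 0.49 and -0.70, and in the 15 rats numbered 1 to 4 it was 0.82, 0.81, 0.74 and -0.80.

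Of the other 3, the SR protein gene Srsf2 had r = 0.68 (permutation p = 0.00077, adjusted p = 0.0327) and rho = 0.67 (permutation p = 0.0022), and r = 0.50 without those rats. Hnrnpu, which binds chromatin and RNA in the nucleus, had r = 0.66 (permutation p = 0.00084, adjusted p = 0.0347) and rho = 0.66 (permutation p = 0.00278), and r = 0.45 without them. Prpf3, a U4/U6 protein gene, had r = -0.68 (permutation p = 0.00131, adjusted p = 0.0426) and rho = -0.58 (permutation p = 0.011), and r = -0.51 without them. Within diets these were 0.53, 0.50 and -0.74, and in the rats numbered 1 to 4 they were 0.76, 0.73 and -0.68.

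**Figure D3:**
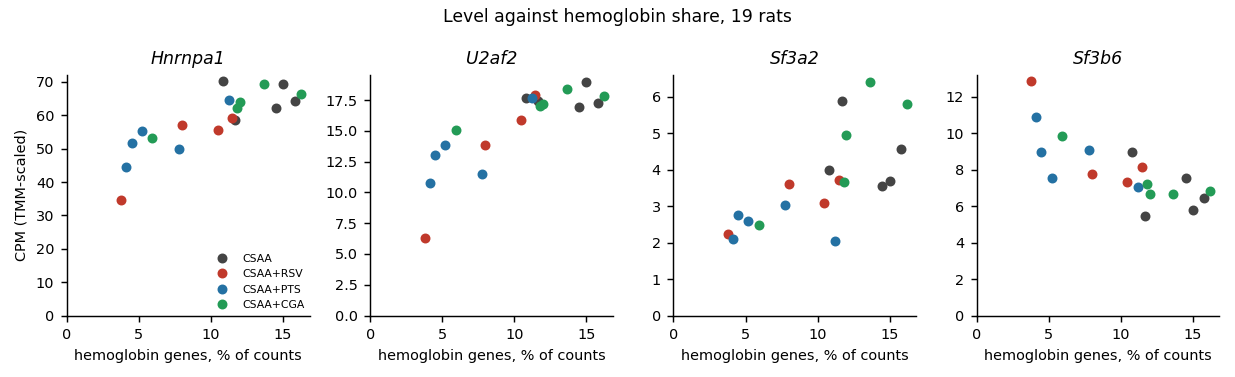
Level of Hnrnpa1, U2af2, Sf3a2 and Sf3b6 against the share of counts from hemoglobin genes. Each point is 1 of 19 rats, colored by diet, with CPM on the vertical axis and percent of counts on the horizontal axis. Hnrnpa1, U2af2 and Sf3a2 are higher and Sf3b6 lower at high shares (r = 0.81, 0.77, 0.73 and -0.77).

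The PTS diet was compared with the CSAA diet first. In edgeR 0 of the 67 members passed an FDR of 0.05, against 0.0% of all genes tested. At an unadjusted p under 0.05 there were 6 members, against 7.58% of all genes. Of these 3 were higher with CSAA+PTS (3.05% of all genes) and 3 lower (4.54% of all genes). Such members numbered 9 with DESeq2 on 4 diets and 15 with limma voom, against 1361 and 2376 of all 16734 genes (1269 in edgeR). The median log2 fold change of the members was 0.01, against 0.02 over all genes tested, with 35 above 0 and 32 below. That balance turned with limma voom (25 above 0, median -0.052) and without CSAA+PTS rat 3 (29, -0.037), CSAA+PTS rat 1 (31, -0.0077), CSAA rat 5 (29, -0.014), CSAA rat 4 (32, -0.0093) or all rats numbered 5 (31, -0.010), and with no low-count filter the median was -0.0028. Leaving out CSAA+RSV rat 3, which enters through the shared estimate of spread, gave 11 members at an unadjusted p under 0.05. Over all genes tested that fit gave 1505.

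Sf3a2 had the lowest p of the members. It was at 3.68, 4.55, 3.55, 3.98 and 5.87 CPM in the CSAA rats and at 3.04, 2.03, 2.11, 2.60 and 2.77 CPM in the CSAA+PTS rats. Every CSAA+PTS rat lay below every CSAA rat, as did 2 members in this comparison (the other was Srsf4) and 1.39% of all genes in either direction. The log2 fold change was -0.78 (SE 0.226, 95% interval -1.26 to -0.31, edgeR unadjusted p = 0.00262, adjusted p = 0.599). Sf3a2 was picked in the study on these same rats, so its p restates that choice.

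DESeq2 fitted to these diets alone gave Sf3a2 a log2 fold change of -0.77 and an adjusted p of 0.0495, the only member past that FDR in any diet comparison under the alternatives run, while DESeq2 on 4 diets gave it 0.164 and limma voom 0.179 (adjusted p). With the hemoglobin share as a covariate, an alternative added after the values were seen, the log2 fold change was -0.36 (SE 0.287, edgeR unadjusted p = 0.222). That share itself differed between diets, and the study named Hba-a1 among its PTS genes. The covariate can therefore take up a diet difference, here and for the genes below, and these cannot be told apart. Leaving out each rat in turn, without the covariate, kept the log2 fold change of Sf3a2 between -0.86 and -0.65. The reads behind it were few, 50 to 205 per library. Its neighbor Plekhj1 shares 6 bases with it in the RefSeq annotation, and with a mean of 212 CPM it had a log2 fold change of 0.04 (SE 0.282). Amh on its other side was at 0.143 CPM.

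The other lower members were Srsf4 and Hnrnpa1. Srsf4, an SR protein gene, was at 11.7, 10.5, 10.7, 13.5 and 10.3 CPM with CSAA and at 7.30, 9.93, 9.03, 9.73 and 8.10 CPM with CSAA+PTS. The groups did not overlap, and the log2 fold change was -0.36 (SE 0.137, edgeR unadjusted p = 0.0157, adjusted p = 0.640). Hnrnpa1 was at 69.3, 64.3, 62.1, 70.4 and 58.7 CPM with CSAA and at 49.8, 64.5, 44.5, 55.2 and 51.7 CPM with CSAA+PTS. Rat 2 of CSAA+PTS lay inside the CSAA range and the other 4 below it. The log2 fold change was -0.29 (SE 0.132, edgeR unadjusted p = 0.0408, adjusted p = 0.645), and with the hemoglobin share as a covariate it was 0.04 (SE 0.139).

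Prpf39 and Srsf12 were among the members higher with CSAA+PTS. Prpf39, the counterpart of a yeast U1 snRNP protein, was at 27.8, 28.9, 27.2, 23.5 and 26.6 CPM with CSAA and at 35.8, 28.4, 31.4, 32.9 and 29.0 CPM with CSAA+PTS, where only rat 2 fell inside the CSAA range. Its log2 fold change was 0.23 (SE 0.0836, edgeR unadjusted p = 0.012, adjusted p = 0.623), and 0.27 with the hemoglobin share as a covariate. Srsf12, an SR-related gene whose human protein can counter SR proteins, was at 4.80 to 5.91 CPM with CSAA. It was at 8.34, 5.78, 4.85, 6.32 and 8.13 CPM with CSAA+PTS, where rats 2 and 3 overlapped with CSAA (0.33, SE 0.137, edgeR unadjusted p = 0.026).

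**Figure D4:**
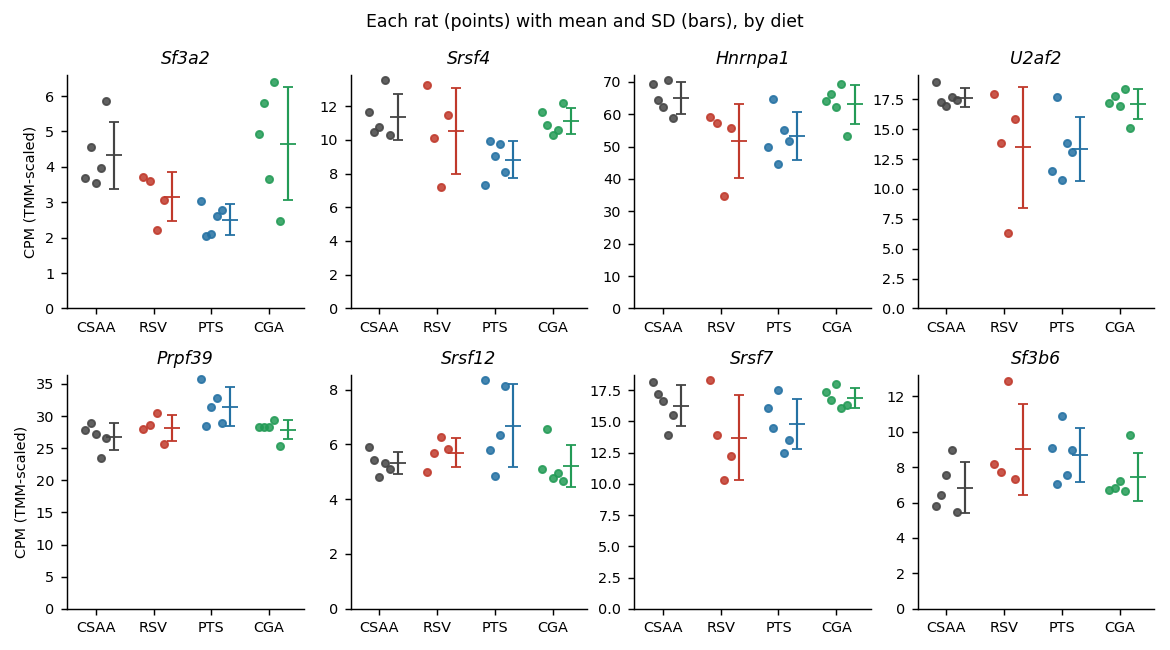
CPM of 8 splicing factor genes in each of 19 rats, by diet. Points are rats, and bars are the mean and SD of a diet. Sf3a2 is at 2.03 to 3.04 CPM in the CSAA+PTS rats and at 3.55 to 5.87 CPM in the CSAA rats, without overlap, while for U2af2 a single CSAA+PTS rat, at 17.7 CPM, lies within the CSAA range.

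Among the U2AF genes U2af2 was at 16.96 to 18.94 CPM with CSAA and at 11.5, 17.7, 10.7, 13.9 and 13.1 CPM with CSAA+PTS. Rat 2 of CSAA+PTS, with the highest hemoglobin share of that diet, was again within the CSAA range. The log2 fold change was -0.40 (SE 0.193, edgeR unadjusted p = 0.0509), and 0.06 (SE 0.208) with the hemoglobin covariate. U2af1, the small subunit that reads the acceptor dinucleotide, had 0.06 (SE 0.160), and its relative U2af1l4 -0.28 (SE 0.215).

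The rest of SF3a and SF3b had log2 fold changes between -0.23 and 0.35. Sf3b6 was at 5.79, 6.44, 7.55, 8.98 and 5.46 CPM with CSAA and at 9.09, 7.04, 10.9, 7.54 and 8.95 CPM with CSAA+PTS, which overlap (0.35, SE 0.178, edgeR unadjusted p = 0.0671; -0.12 with the hemoglobin covariate). Sf3b2 had -0.21 (SE 0.107), Sf3a1 -0.23 (SE 0.232), Sf3b1 0.17 (SE 0.102), Sf3b4 0.16 (SE 0.297) and Sf3a3 0.15 (SE 0.101). Sf3b5 and Sf3b3 had 0.02 and 0.01. All SF3a and SF3b genes but Sf3a2 had an unadjusted p above 0.05, its partners Sf3a1 and Sf3a3 included. Whether Sf3a2 differed from them was not tested.

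Among the members reported here, no further one of the remaining families had an unadjusted p under 0.05. Of 19 HNRNP genes 14 had a log2 fold change below 0 (median -0.11), with Hnrnpa2b1 at -0.35 (SE 0.167, edgeR unadjusted p = 0.0527) and Hnrnpul2 at -0.29 (SE 0.141, edgeR unadjusted p = 0.0559). Hnrnpf, the HNRNP gene with the highest CPM, had -0.02 (SE 0.140). Of 13 PRPF genes 7 were above 0 (median 0.01), and Prpf8 was at -0.34 (SE 0.182, edgeR unadjusted p = 0.0742). Of 12 SNRP genes 9 were above 0 (median 0.02), among them Snrpb2 at 0.29 (SE 0.172), Snrpc at 0.19 (SE 0.268) and Snrpd2 at 0.12 (SE 0.240), with Snrpf at -0.12 (SE 0.179). Of 11 SRSF genes 7 were above 0 (median 0.06), and Srsf1, the SRSF gene with the highest CPM, had 0.17 (SE 0.0961, edgeR unadjusted p = 0.0927).

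**Figure D5:**
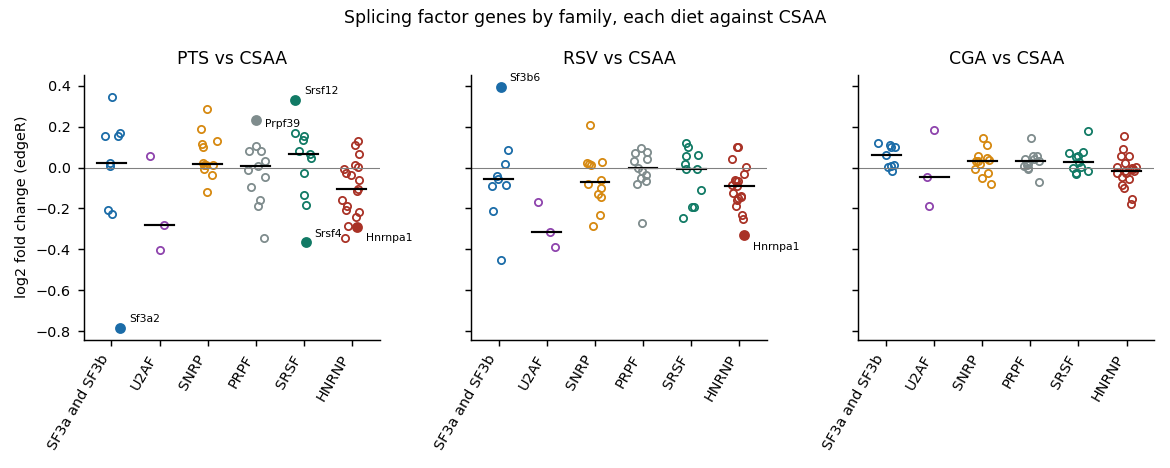
Log2 fold change of 66 of the 67 splicing factor genes by family, for each supplemented diet against CSAA in edgeR. Each circle is a gene, filled where the unadjusted p was under 0.05, and bars are medians over all measured genes of a family. Sf3a2 lies lowest with PTS at -0.78, and with CGA no circle is filled.

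For RSV against CSAA, 0 members passed an FDR of 0.05 in edgeR (0.0% of all genes), and 2 had an unadjusted p under 0.05, against 2.12% of all genes. DESeq2 on 4 diets gave 1 and limma voom 6 such members, against 379 and 1111 of all 16734 genes (355 in edgeR). The median log2 fold change of the members was -0.06, against 0.02 over all genes, with 23 above 0 and 44 below. Hnrnpa1 was at 59.1, 57.2, 34.6 and 55.7 CPM in the 4 CSAA+RSV rats, against 58.7 to 70.4 CPM with CSAA (-0.33, SE 0.140, edgeR unadjusted p = 0.0297, adjusted p = 1.00). Only rat 1 overlapped with CSAA. Sf3b6 was at 8.17, 7.75, 12.9 and 7.31 CPM, against 5.46 to 8.98 CPM with CSAA (0.40, SE 0.187, edgeR unadjusted p = 0.0483), and only rat 3 exceeded the CSAA range. Groups were without overlap for 0 members, against 0.741% of all genes.

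That count of 2 rested on single rats. It was 0 without CSAA rat 1 or CSAA+RSV rat 3, 8 without CSAA+RSV rat 1, 6 without CSAA+RSV rat 5 and 5 without CSAA rat 3. Over all genes tested these fits gave 257, 236, 683, 573 and 356 in the same order. The member count was 1 without CSAA rats 2, 4 or 5, CSAA+PTS rats 1, 4 or 5, or CSAA+CGA rats 1, 2, 3 or 4, each left out alone. Those fits gave 265 to 567 over all genes tested. With RSV Sf3a2 was at 3.72, 3.61, 2.23 and 3.07 CPM, which overlaps with CSAA (-0.45, SE 0.238, edgeR unadjusted p = 0.072).

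For CGA against CSAA, 0 members passed an FDR of 0.05 in edgeR (0.0% of all genes) and 0 had an unadjusted p under 0.05, against 0.639% of all genes. DESeq2 on 4 diets also gave 0 at an unadjusted p under 0.05, and limma voom gave 1. Over all genes tested these counts were 98 and 743. The median log2 fold change of the members was 0.01, against -0.01 over all genes tested, with 41 above 0 and 26 below. This balance turned without CSAA rat 5 (26 above 0, median -0.013) and without all rats numbered 5 (27 above 0, median -0.015), and the median was -0.0044 with limma voom. The lowest p belonged to Srsf9, an SR protein gene, with 0.18 (SE 0.134, 95% interval -0.10 to 0.46) and U2af1 with 0.19 (95% interval -0.15 to 0.52). Groups were without overlap for 0 members, against 0.239% of all genes. With CGA Sf3a2 ranged widely, at 4.94, 5.80, 3.65, 6.39 and 2.48 CPM, and rat 5, the lowest, had the lowest hemoglobin share of that diet (5.93%).

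The compounds were then compared directly, in 3 pairs, at doses equal in moles and with p-values adjusted over all genes tested in each pair. PTS and RSV differ in those methoxy groups. Between them 0 members passed an FDR of 0.05 in edgeR (0.0% of all genes) and 0 had an unadjusted p under 0.05, against 3.06% of all genes. At that p limma voom gave 6 and DESeq2 on 4 diets 1, against 1252 and 554 of all 16734 genes. The lowest p were those of Prpf39, at 0.16 with PTS relative to RSV (95% interval -0.02 to 0.35), and Srsf4, at -0.25 (95% interval -0.56 to 0.05). For Sf3a2 the difference was -0.33 (95% interval -0.83 to 0.17) and for Hnrnpa1 0.04 (95% interval -0.25 to 0.33), so a difference of either sign remained possible. Leaving out CSAA+RSV rat 3 gave 4 members at an unadjusted p under 0.05. Without CSAA+RSV rat 1, CSAA+PTS rat 2 or CSAA+PTS rat 3, each left out alone, that count was 1. Of all 16734 genes these fits gave 969, 601, 612 and 455 in the same order. Groups were without overlap for 0 members, against 0.424% of all genes.

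Between PTS and CGA 0 members passed an FDR of 0.05 in edgeR (0.0% of all genes), and 3 had an unadjusted p under 0.05, against 5.22% of all genes. Sf3a2 was lower with PTS, at -0.88 (SE 0.225, 95% interval -1.36 to -0.41, edgeR unadjusted p = 0.000932, adjusted p = 0.828), although CSAA+CGA rat 5 at 2.48 CPM lay within the CSAA+PTS range. With the hemoglobin covariate this was -0.51 (SE 0.269, edgeR unadjusted p = 0.0751). At an unadjusted p under 0.05 limma voom gave 14 members and DESeq2 on 4 diets 6. Over all 16734 genes these counts were 2620 and 1020, and 874 in edgeR. Srsf4 had -0.33 (SE 0.137), and its groups did not overlap, as for 1 member and 0.801% of all genes. Srsf12 had 0.36 (SE 0.137). The count of 3 was 8 without CSAA+PTS rat 2, 7 without CSAA+RSV rat 3, 6 without CSAA+PTS rat 5 and 5 without CSAA+CGA rat 3. Over all genes tested these fits gave 1059, 1105, 1912 and 912. The comparisons of PTS with CSAA and with CGA share the CSAA+PTS rats.

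Between RSV and CGA 0 members passed an FDR of 0.05 in edgeR (0.0% of all genes), and 2 had an unadjusted p under 0.05, against 1.95% of all genes. These were Sf3a2, at -0.55 with RSV relative to CGA (SE 0.238, edgeR unadjusted p = 0.0309), and Srsf7, an SR protein gene, at -0.30 (SE 0.139, edgeR unadjusted p = 0.043). With DESeq2 on 4 diets there were 3 such members, and with limma voom 8. Over all 16734 genes these counts were 358 and 1217, and 327 in edgeR. Srsf7 was at 18.3, 13.9, 10.3 and 12.3 CPM with CSAA+RSV and at 17.4, 16.7, 18.03, 16.1 and 16.3 CPM with CSAA+CGA. Rat 1 of CSAA+RSV lay above the CSAA+CGA range and the other 3 below it. The count of 2 was 7 without CSAA+RSV rat 1, 4 without CSAA+CGA rat 5, 0 without CSAA+CGA rat 2, and 1 without CSAA+RSV rats 3 or 5 or CSAA+CGA rats 1, 3 or 4. Over all genes tested those fits gave 548, 969 and 250, then 209 to 558. Groups were without overlap for 0 members, against 0.675% of all genes.

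Other genes of the splicing machinery, taken from 7 lists with 136 measured genes, were compared in the same fit. With PTS against CSAA 14 had an unadjusted p under 0.05 in edgeR (8 higher, 6 lower) and 0 passed an FDR of 0.05, with a median log2 fold change of 0.01. Over all genes tested 7.58% had such a p, 3.05% higher and 4.54% lower, and the counts of the single lists are to be read against these shares. Each list is given by its gene with the lowest p, picked as the extreme of its list. Magoh of the exon junction complex was at 9.08 ± 1.64 CPM with CSAA+PTS and 6.44 ± 0.974 CPM with CSAA (SD, n = 5 each; 0.50, SE 0.145), with 1 of 13 genes of that complex higher and 1 lower at an unadjusted p under 0.05. Ddx23, a helicase of the U5 snRNP, was at 42.6 ± 11.2 against 57.8 ± 5.51 CPM (-0.44, SE 0.153), with 1 of 30 other snRNP genes higher and 2 lower.

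Xab2, of the complexes that join with PRP19, was at 6.76 ± 0.743 against 8.47 ± 0.462 CPM (-0.33, SE 0.120), with 1 of 25 genes of the PRP19 complex and step helicases higher and 3 lower. Clk4, a kinase that phosphorylates SR proteins, was at 26.5 ± 3.85 against 22.2 ± 1.26 CPM (0.26, SE 0.104), with 3 of 19 SR protein kinases and coactivators higher and 0 lower. Matr3, a nuclear matrix RNA-binding protein, was at 102 ± 7.50 against 85.5 ± 6.97 CPM (0.26, SE 0.0993), with 2 of 27 other regulators higher and 0 lower. The minor spliceosome (9 genes) and the SMN complex that assembles snRNPs (13 genes) had 0 in either direction. Their lowest p were those of Zmat5 (-0.67, SE 0.418) and Gemin4 (-0.24, SE 0.126). With RSV and with CGA against CSAA 0 of the 136 genes had an unadjusted p under 0.05. Over all genes tested these shares were 2.12% with RSV and 0.639% with CGA.

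Cell type markers were compared in the same libraries, and 0 passed an FDR of 0.05 with PTS against CSAA. Of 23 red cell and reticulocyte markers, 18 were below 0 with PTS against CSAA, 6 of them at an unadjusted p under 0.05 in edgeR, and 5 were above 0. Over all 16734 genes tested 7894 were below 0, and 4.54% were lower and 3.05% higher at that p, which is the background for this and the marker counts that follow. The summed level of the red cell markers was 123879 to 230434 CPM with CSAA, 72010 to 152302 with CSAA+RSV, 50894 to 187076 with CSAA+PTS and 74760 to 190628 with CSAA+CGA. Globin genes weigh most in the CSAA sum. Medians with CSAA and CSAA+PTS were 56896 and 14521 CPM for Hbb. They were 16719 and 18493 for Alas2, 129 and 151 for Tfrc, and 43.4 and 49.1 for Rhag, all with overlapping ranges. The sum of 14 neutrophil markers was 562 to 984 CPM with CSAA and 452 to 1247 CPM with CSAA+PTS, with 2 of 14 higher. The sum of 16 T-cell markers was 371 to 456 and 401 to 477 CPM, with 1 of 16 lower. For 12 B-cell markers it was 169 to 228 and 134 to 238.7 CPM (0 of 12), and for 14 platelet markers 1872 to 2769 and 1455 to 2909 CPM (0 of 14). Of 11 NK cell markers 1 was higher, and of 13 monocyte markers 2 were lower. The part of these shifts in the levels of Sf3a2, Hnrnpa1, U2af2 and Sf3b6 was not tested beyond the hemoglobin covariate above.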

How the data were processed

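Whole blood RNA of 20 rats was sequenced as strand-marking single-read libraries. Per the submitters' processing notes the reads were handled with FastQC 0.11, Trimmomatic 0.32, FastX-Toolkit, TopHat2 2.1 and Rsubread on rn6, and tested by the authors with DESeq2 1.30. The table the authors deposited holds raw counts per gene and gene lengths, and all its sample columns were mapped (0 unmapped). Whether counting used strand and which rats shared a lane was not stated in the sources used here. Reads of overlapping or near-identical genes may be shared.

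CSAA+RSV rat 4 (861072 counts) was left out, and genes needed at least 2 reads in at least 15 of 19 libraries. Counts were scaled by TMM and fitted with diet in edgeR 4.0.16 (quasi-likelihood test, R 4.3.3), with Benjamini-Hochberg adjustment over all 16734 genes. Adjusted p-values marked edgeR come from this fit. The 19 totals (median 32111022 counts) give few reads for the lowest members, 15 to 49 per library for Snrpc. Levels between genes are CPM per kilobase of the deposited length. Correlations with the hemoglobin share used 100000 permutations, two-sided, on log2 CPM. Alternatives used limma 3.58.1 (voom with sample weights), DESeq2 1.42.0, other scaling, filters and samples, and each rat left out. The fit was tested on simulated counts for PTS against CSAA, with changes planted only in genes above a minimum of reads. At an FDR under 0.05 it recovered 70% of 100 planted log2 changes of 1 and 94% of 100 planted changes of 2. Of 168 calls 4 were false. Smaller changes were not tried, and the simulated counts held no differences by rat number or hemoglobin share.

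Genes named were Sf3a2, all SF3a, SF3b and U2AF genes, in each other family the gene with the highest CPM and those with the 3 lowest p for PTS against CSAA, in each other comparison those with the 2 lowest p, and in each list of other splicing genes the one with the lowest p. Genes named for their level per kilobase, their relation to hemoglobin or the rat number were added after their values were seen. Results of 1 member are not reported here. The members and lists were chosen with earlier results of these data known.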

Additional observations from a re-analysis of the deposited data

Results flagged for a closer look

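In 112 groups of 4 or 5 rats (28 named genes in 4 diets), 9 held a rat far from the others of its diet by Dixon's criterion, which chance alone meets in about 1 in 20 groups. CSAA+RSV rat 3, the rat with the lowest hemoglobin share, accounted for 3 of them. It was at 12.85 CPM for Sf3b6 against 7.31 to 8.17 CPM in the other CSAA+RSV rats, at 34.61 CPM for Hnrnpa1 against 55.7 to 59.1 CPM, and at 45.16 CPM for Prpf8 against 68.9 to 73.1 CPM. CSAA+RSV rat 5 was at 104.6 CPM for Srsf1 against 129 to 134 CPM and at 17.47 CPM for Snrpd2 against 31.3 to 32.9 CPM. CSAA+CGA rat 5, with the lowest hemoglobin share of its diet, was at 9.823 CPM for Sf3b6 against 6.64 to 7.24 CPM and at 25.39 CPM for Prpf39 against 28.3 to 29.3 CPM. CSAA+CGA rat 2 was at 6.562 CPM for Srsf12 against 4.67 to 5.10 CPM. CSAA rat 3 was at 5.167 CPM for Sf3a1 against 8.02 to 9.04 CPM.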

How the results depend on the processing

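With 4 or 5 rats per diet and low counts for several members, differences below the printed intervals could not be seen. The count of members past an FDR of 0.05 stayed at 0 in every diet comparison and alternative run, except 1 for PTS against CSAA (Sf3a2) with DESeq2 on those diets alone. Leaving out each rat in turn gave 0 to 0 in all diet comparisons, and 0 to 6 members for the rat number term. For that term the counts over all genes tested were 628 to 2814.

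At an unadjusted p under 0.05, limma voom gave 15 members for PTS against CSAA, 6 for RSV against CSAA, 1 for CGA against CSAA, 6 for PTS against RSV, 14 for PTS against CGA and 8 for RSV against CGA. Over all 16734 genes it gave 2376, 1111, 743, 1252, 2620 and 1217 in the same order. DESeq2 on 4 diets gave 1 for RSV against CSAA, 1 for PTS against RSV and 6 for PTS against CGA, with 379, 554 and 1020 over all genes. On the compared diets alone DESeq2 gave 6 for PTS against CGA and 0 for RSV against CGA, and edgeR 1 for RSV against CSAA and 0 for RSV against CGA. Over all genes these counts were 987, 312, 345 and 323. For RSV against CSAA the count was 1 with hemoglobin genes removed before scaling, 1 with no low-count filter and 1 with RLE size factors. Over all genes tested these fits gave 357, 1136 (of 31628 genes without the filter) and 368. All 20 libraries gave 1 for PTS against RSV, and leaving out the rats numbered 5 gave 5 for RSV against CGA. Over all genes tested these counts were 509 and 1200. For the rat number term, no filter gave 6 members at an FDR of 0.05 and leaving out the rats numbered 5 gave 0. Over all genes these counts were 7428 of 31628 and 0 of 16734. Leaving out each rat gave 4 to 11 for PTS against CSAA, 0 to 8 for RSV against CSAA, 0 to 4 for PTS against RSV, 2 to 8 for PTS against CGA and 0 to 7 for RSV against CGA. Over all genes tested the ranges were 838 to 1797, 236 to 683, 402 to 1268, 467 to 1912 and 209 to 969. The cause was not tested.

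The hemoglobin share differed between diets, so a covariate of it can also take up a diet difference. The hemoglobin covariate, chosen after seeing the data, gave 0 members for RSV against CSAA and 1 for RSV against CGA (147 and 225 of all genes tested) at an unadjusted p under 0.05. For PTS against CSAA it gave 4 members and 513 of all genes, where the main fit gave 6 and 1269. For PTS against CGA these were 2 and 544, where the main fit gave 3 and 874. Over all genes PTS against RSV rose from 512 to 626 and CGA against CSAA from 107 to 114, with 0 members in each. The covariate turned the PTS against CSAA log2 fold change of Sf3a3 to -0.032, Sf3b6 to -0.12, U2af1 to -0.14, U2af2 to 0.058, Snrpb2 to -0.10, Snrpc to -0.16, Hnrnpf to 0.15, Hnrnpa1 to 0.037 and Srsf7 to 0.067. Limma voom turned Sf3b3 to -0.036, Sf3b5 to -0.079, Snrpd2 to -0.017 and Snrpc to -0.042. No filter turned Sf3b3 to -0.0028, and edgeR on those diets alone turned Hnrnpf to 0.0069. Leaving out each rat gave -0.073 to 0.056 for Hnrnpf, -0.040 to 0.051 for Sf3b3, -0.027 to 0.34 for Sf3b4, -0.10 to 0.16 for Sf3b5, -0.025 to 0.37 for Snrpc, -0.024 to 0.30 for Snrpd2 and -0.048 to 0.16 for U2af1.

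The labels give no shared litter, batch or day for a rat number, and not every same-numbered pair of rats had correlated deviations, so the numbers were not taken as pairing. The library names do hold animal numbers that run across the diets. Rats numbered 1 were animals 1 to 4, rats numbered 2 were 5 to 8, rats numbered 3 were 9 to 12 and rats numbered 4 were 13 to 16. Rats numbered 5 were animals 17, 22, 23 and 24. Whether such runs were handled together is not stated, and the main fit has no term for them. Between CSAA and CSAA+PTS these correlations were 0.28, 0.05, 0.32, 0.27 and 0.51, above the best other pair except for rat 2. Between CSAA and CSAA+RSV they were 0.23, -0.30, 0.11 and 0.71. The rats numbered 5 correlated at 0.44 to 0.77 in all 6 comparisons. With the replicate block in the fit, members at an unadjusted p under 0.05 numbered 14 for PTS against CSAA, 5 for RSV against CSAA, 10 for PTS against CGA and 4 for RSV against CGA, with Sf3a2 at -0.79 for PTS against CSAA (edgeR adjusted p = 0.226). Over all 16734 genes those counts were 2039, 620, 1703 and 643.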
